A study of Mus musculus with 19 samples.

Results

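Smad2 and Smad3 sites that lie outside every accessible peak were examined in mouse skin squamous cell carcinoma. They were chosen by position alone: a site of the authors' Smad2/3 list was a member when not even 1 bp of it overlapped the authors' merged list of ATAC-seq peaks. Of 6143 listed sites, 2453 were members (39.9%, exact 95% binomial interval 38.7 to 41.2%), and the other 3690 (60.1%) overlapped a peak and are called inside sites. Every site is 201 bp long and carries no score, and the list is named for bound sites that hold a motif. Which motif that was is not given in the sources used.

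The Smad2/3 sites came from 1 ChIP-seq library of SCC1 cells with SCC1 input DNA beside it. SCC1 is a squamous cell carcinoma of C57BL/6 skin, and its cells were here grown with 50 uM calcium and treated with 5 ng/mL TGFβ1 for 1 h. Copy numbers were called by the authors on this input DNA and on input DNA of SCC2 cells, which had the same calcium and TGFβ1 treatment. The 61553 ATAC peaks merge libraries of the study, whose 10 ATAC samples were sorted from tumour allografts: quiescent (CD71lo H2BGFPhi), double negative (CD71lo H2BGFPlo), double positive (CD71hi H2BGFPhi) and proliferative (CD71hi H2BGFPlo) cells of SCC1 and SCC2, and a Tgfbr2KO tumour, SCC3. The sources used here do not say which libraries entered the merged list. CD71 is the transferrin receptor, and H2BGFP is a labelled histone that is diluted as cells divide. RNA was measured in quiescent, double negative and proliferative cells of SCC1 and SCC2, each population of each tumour as 1 library. The sites thus come from cultured, TGFβ1-treated cells and the peaks from sorted tumour cells, and a site missing from the peak list is not thereby shown to lie in closed chromatin. The lists give no read totals, so their depth is unknown, and the files hold no expression levels against which the cell type could be checked.

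TGF-β binds a receptor pair at the cell surface that phosphorylates Smad2 and Smad3. These join Smad4, enter the nucleus and bind DNA at short Smad boxes, usually beside other transcription factors such as AP-1. In keratinocytes the pathway is known for growth arrest and for matrix and adhesion genes. ATAC-seq marks DNA that a transposase can reach, so a peak is a stretch that was open in enough of the cells.

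Of the outside sites, 72 overlapped a RefSeq promoter window (250 bases before to 50 after a gene's start), as did 261 inside sites. The sequences of 6 of these are shown as examples of a site with no peak at the start of a gene: Krt8 and 1810019D21Rik are named by later results, and the other 4 were picked after their values were seen. Letters are the GRCm38.p6 bases of the site that fall in the window, from RefSeq, 5′ to 3′ on the strand of the gene. Capitals mark the Smad box CAGAC or its complement GTCTG and the AP-1 motif TGANTCA.
Krt8, encoding the simple epithelial keratin 8, is shown at chr15:102004293-102004468 on the minus strand, and its site is 11533 bp from the nearest peak. Col17a1 encodes the hemidesmosome collagen XVII and is shown at chr19:47691993-47692158 on the minus strand, 6143 bp from a peak. Sbsn encodes suprabasin, a protein of differentiated epidermis, and is shown at chr7:30751443-30751520 on the plus strand, 7208 bp from a peak. Ddr1 encodes a collagen receptor kinase and is shown at chr17:35702066-35702266 on the minus strand, 1866 bp from a peak. Morrbid, a long noncoding RNA gene, is shown at chr2:128429306-128429506 on the minus strand, 756 bp from a peak. The noncoding gene 1810019D21Rik is shown at chr8:106135150-106135239 on the plus strand, 1462 bp from a peak.
Krt8: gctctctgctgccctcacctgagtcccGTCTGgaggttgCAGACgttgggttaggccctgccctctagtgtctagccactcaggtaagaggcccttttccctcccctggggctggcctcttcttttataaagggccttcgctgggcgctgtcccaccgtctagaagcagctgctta
Col17a1: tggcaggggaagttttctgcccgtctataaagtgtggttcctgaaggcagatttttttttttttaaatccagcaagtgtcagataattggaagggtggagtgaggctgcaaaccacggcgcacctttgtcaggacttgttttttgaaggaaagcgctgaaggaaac
Sbsn: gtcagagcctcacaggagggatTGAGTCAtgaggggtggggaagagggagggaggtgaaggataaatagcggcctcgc
Ddr1: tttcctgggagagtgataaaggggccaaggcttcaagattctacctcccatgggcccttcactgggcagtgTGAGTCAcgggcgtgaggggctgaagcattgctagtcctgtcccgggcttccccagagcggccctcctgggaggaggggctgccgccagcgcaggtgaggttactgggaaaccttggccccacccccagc
Morrbid: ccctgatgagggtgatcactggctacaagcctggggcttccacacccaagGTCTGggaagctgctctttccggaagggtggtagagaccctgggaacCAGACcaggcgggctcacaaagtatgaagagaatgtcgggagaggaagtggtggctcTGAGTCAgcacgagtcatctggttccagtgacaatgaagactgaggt
1810019D21Rik: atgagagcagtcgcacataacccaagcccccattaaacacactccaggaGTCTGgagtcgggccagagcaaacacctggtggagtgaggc

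Krt8 showed 2 Smad boxes and no TGANTCA, and Morrbid showed 2 Smad boxes and 1 TGANTCA. Ddr1 and Sbsn each showed 1 TGANTCA and no Smad box, Col17a1 showed neither, and 1810019D21Rik showed 1 Smad box. Among sites wholly within a promoter window, CAGAC on either strand was found in 6 of 21 outside sites (28.6%) and 40 of 73 inside sites (54.8%), beside 35.6% of all 32815 promoter windows cut to the same 201 bases. TGANTCA was found in 5 of 21 outside sites (23.8%) and 12 of 73 inside sites (16.4%), beside 5.58% of the windows. The palindrome GTCTAGAC was found in 0 of 21 outside sites and 1 of 73 inside sites, beside 0.107% of the windows. GGCGC, another Smad motif, was found in 6 of 21 outside sites and 27 of 73 inside sites, beside 29.6% of the windows. In the central 31 bases, CAGAC was found in 9 of 40 outside sites (22.5%) and 28 of 168 inside sites (16.7%), beside 6.07% of windows. There TGANTCA was found in 1 of 40 outside sites (2.50%) and 5 of 168 inside sites (2.98%), beside 0.914% of windows, so the outside share was not the higher one as it was over 201 bases. GGCGC was found there in 3 of 40 outside sites (7.50%) and 6 of 168 inside sites (3.57%), beside 6.77% of windows, and GTCTAGAC in 0 of 40 and 2 of 168, beside 0.00914%. All motifs were searched on both strands, and none of the 4 contains another. These counts cover only the few sites in promoter windows, and a match is a description of letters.

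The first question was how far outside sites lie from accessible DNA. Most were near a peak without touching it. Distance to the nearest peak had a median of 4946 bp, with quartiles of 1438 and 13094 bp, and ran from 2 to 572571 bp. Of the outside sites, 459 (18.7%) lay within 1 kb of a peak, where only 4.51% of all bases between peaks lie. Within 10 kb of a peak there were 1673 (68.2%), beside 30.0% of those bases. The membership rule itself used peak positions, so these distances are a description.

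**Figure D1:**
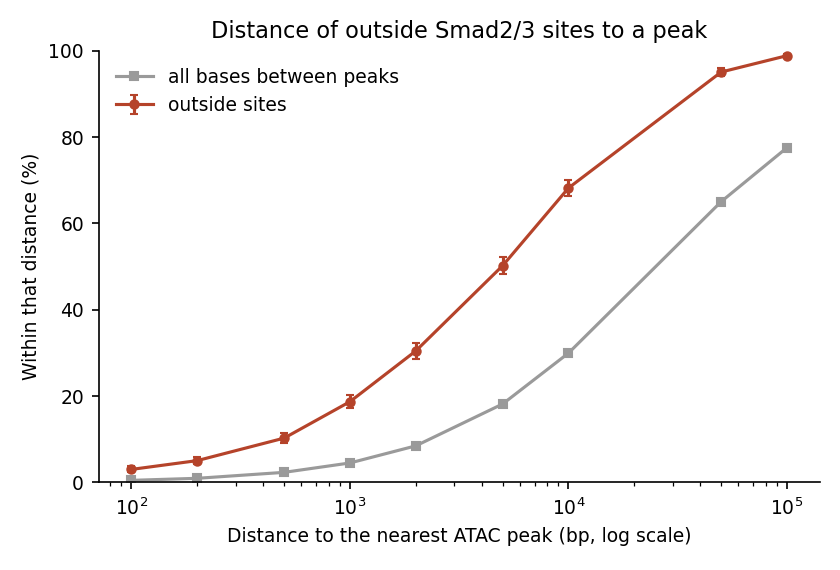
Percentage of the 2453 outside sites (red, with exact 95% binomial intervals) and of all bases between peaks (grey) that lie within a given distance of the nearest ATAC peak; the distance axis is logarithmic. The site curve lies above the base curve at every distance drawn, with 50.2% of sites and 18.2% of bases within 5 kb.

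At the border of the rule, 74 outside sites lay within 100 bp of a peak and 171 inside sites overlapped a peak by at most 100 bp. Of the inside sites, 3101 lay wholly within a peak. At the other end, 121 outside sites were beyond 50 kb from any peak and 28 were beyond 100 kb. The farthest, chr2:162282821-162283021, lay in Ptprt, a receptor-type tyrosine phosphatase gene, 572571 bp from a peak. The next, chr17:68590887-68591087, lay 315437 bp from a peak in L3mbtl4, which encodes a protein with MBT repeats. The other 8 of the 10 farthest sites lay in no annotated gene, 147452 to 262001 bp from a peak. Outside sites with another listed site within 10 kb were closer to a peak, with a median of 3818.5 bp, than those without, with a median of 7256 bp. That neighbour can be an inside site, which itself overlaps a peak, so this contrast is partly set by the membership rule. The neighbour was an outside site for 605 of these 1054 sites (57.4%), and their distances were not taken separately.

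The next question was whether outside sites stand in groups. They had close neighbours more often than inside sites did. Another listed site started within 10 kb for 1054 of 2453 outside sites (43.0%, interval 41.0 to 45.0%), against 1154 of 3690 inside sites (31.3%, 29.8 to 32.8%). The difference was 11.7 percentage points, and the odds ratio was 1.66 (Fisher exact test, two-sided, p adjusted over 4 site features by Benjamini-Hochberg = 4.46e-20). The share was higher for outside sites on 19 of 19 autosomes, and within chromosomes the Mantel-Haenszel odds ratio was 1.67 (95% interval 1.49 to 1.86). The median distance to the nearest other site was 13699 bp for outside sites and 25775 bp for inside sites. That nearest site was itself an outside site for 51.0% of outside sites and 35.7% of inside sites. All sites come from 1 library and neighbours are not independent, so the p-values here describe the list and not a population of tumours.

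**Figure D2:**
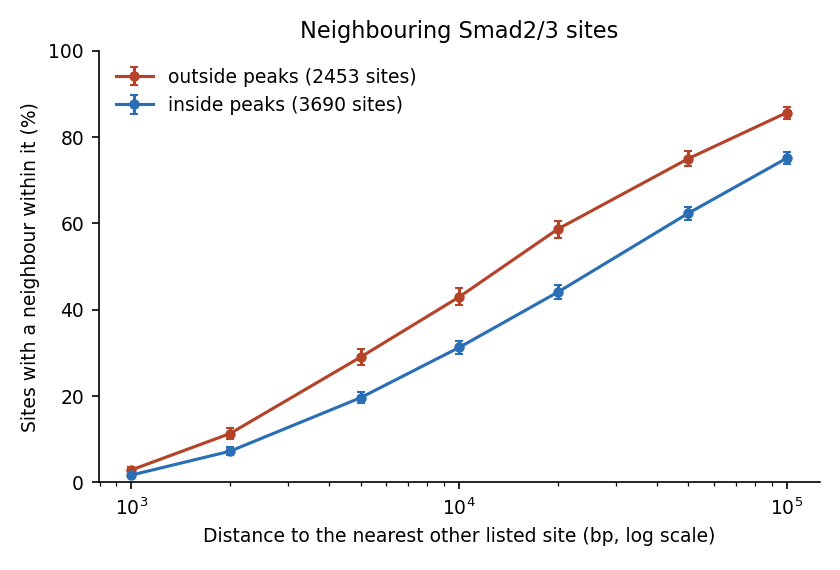
Percentage of outside sites (red) and inside sites (blue) with another listed Smad2/3 site within a given distance, with exact 95% binomial intervals; the distance axis is logarithmic. The outside curve is higher throughout, with 29.0% against 19.6% at 5 kb and 58.7% against 44.1% at 20 kb.

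Outside sites were then chained to each other at gaps of up to 10 kb, with inside sites ignored. In this way 681 outside sites (27.8%) formed 291 runs of 2 or more, and the other 1772 joined no other outside site. Fewer, 1399, had no listed site of either kind starting within 10 kb. There were 23 runs of 4 or more sites. The longest held 11 sites over 45.7 kb at chr6:91207607-91253303, on Fbln2, which encodes the matrix protein fibulin 2. Of these, 9 lay in the gene and the others 5057 and 1819 bp before its start, and their distances to a peak ran from 1406 to 21418 bp. A single stretch of 44.4 kb between neighbouring peaks, chr6:91215401-91259750, held 9 of these sites. Runs of 5 sites lay at Itpr3, an inositol trisphosphate receptor gene; at Smad7, the inhibitory Smad that TGF-β induces; and at Wnt7a, a Wnt ligand gene. Others of 5 lay at Ahnak, a large scaffold protein gene, beside Eef1g; at Trim29; at Car12, a carbonic anhydrase gene; and at chr6:91650907-91657304, with no protein-coding gene within 10 kb. The run at Smad7 lay close to peaks, 448 to 3532 bp away with 4 peaks between its sites, whereas that at Itpr3 lay 8086 to 20116 bp from a peak with none between.

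There were 15 runs of 4 sites. One lay at Krt5 and Krt6a, keratins of basal and activated epidermis, and another at Jup, encoding plakoglobin of cell junctions, with P3h4 and Fkbp10 beside it. Others lay at Cdh3, encoding P-cadherin; at Lama5, encoding a basement membrane laminin chain; and at Trappc9, Chka, Mal, Sulf2, Cyp26b1, Pak4, Adgrg1 and Kcnk1. For 2 runs no protein-coding gene lay within 10 kb. The last lay at Grhl3, a transcription factor of epidermal differentiation, 68782 to 80796 bp from any peak. That run was part of the stretch between neighbouring peaks with the most outside sites, chr4:135494801-135855650, which held 10 over 360.9 kb. In all, 1949 of the 61512 stretches between neighbouring peaks held an outside site, and 342 held 2 or more. In the authors' copy number calls, SCC1 had 3 copies at the runs of Itpr3, Ahnak, Krt5, Cdh3, Chka, Cyp26b1, Pak4 and Grhl3. It had 4 copies at the run of Jup, and the other runs of 4 or more sites had no SCC1 call.

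By 1 Mb bins, 784 held an outside site, with a median of 2 among them. The bin chr6:91000001-92000000, which holds Fbln2 and Wnt7a, had the most, with 46 outside sites beside 14 inside sites and 41 peaks. Neither tumour had a copy number call there, and the nearest called gain ended 2.8 Mb away in both. Next came chr9:43000001-44000000 with 27 outside and 8 inside sites, and chr8:126000001-127000000 with 26 outside and 21 inside sites. Without the chromosome 6 bin the difference in neighbour share was 11.2 percentage points, so it was about as large.

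**Figure D3:**
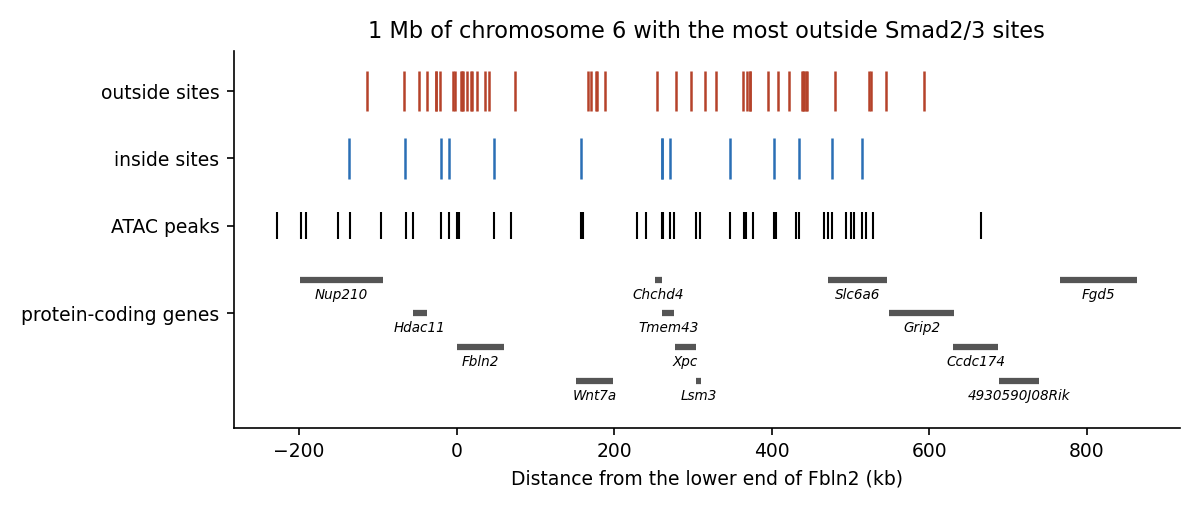
Positions of outside sites, inside sites, ATAC peaks and protein-coding genes in the 1 Mb bin of chromosome 6 with the most outside sites, in kb from the lower end of Fbln2. The 46 outside sites fall in several groups, among them those over Fbln2 and Wnt7a, where stretches without a peak separate the sites from the nearest ones.

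The 1 kb around gene starts held a smaller share of the outside sites than of the inside sites, and for gene bodies no difference was detected. In a gene body lay 1558 outside sites (63.5%, interval 61.6 to 65.4%) and 2339 inside sites (63.4%, 61.8 to 64.9%), and the test did not separate them (Fisher exact test, adjusted p = 0.935, Mantel-Haenszel odds ratio within chromosomes 0.977, interval 0.877 to 1.09). Within 1 kb of a gene start lay 172 of 2330 outside sites (7.38%) against 445 of 3536 inside sites (12.6%), an odds ratio of 0.554 (Fisher exact test, adjusted p = 2.05e-10). Chromosome 18 is left out of this feature because the start positions used do not cover it. With a window of 5 kb the difference, outside minus inside, was -2.60 percentage points, beside -5.20 with 1 kb (Fisher exact test, adjusted p = 0.0319 for 5 kb). Outside sites were not farther from gene starts in general: the median distance was 15042.5 bp for outside sites and 16393.5 bp for inside sites. A peak overlapped 35.5% of all promoter windows. Peaks also defined the members, so the comparison at gene starts is not independent of the rule, and the part of peaks at starts in the difference was not tested. No annotated gene lay within 10 kb of 351 outside sites (14.3%).

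In this list, SCC1 copy number gains held a somewhat larger share of the outside sites than of the inside sites. In an SCC1 copy number gain lay 1009 outside sites (41.1%) against 1343 inside sites (36.4%), an odds ratio of 1.22 (Fisher exact test, adjusted p = 0.00026). Within chromosomes the odds ratio was 1.19 (interval 1.06 to 1.34), but the share was higher for outside sites on only 10 of 19 autosomes. A single gain can hold many sites, and sites in it are not independent. The p-value and interval therefore describe the list only, and no test by gain was run. In SCC2 gains the shares were 44.5% of outside sites and 36.2% of inside sites. Extra copies add reads to a ChIP library, and their part in the calling of outside sites was not tested. The share of sites outside peaks also differed by chromosome, with 60.1% on chromosome 4 (191 of 318 sites) and 18.2% on chromosome 3 (46 of 253), which have 2773 and 4501 peaks.

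**Figure D4:**
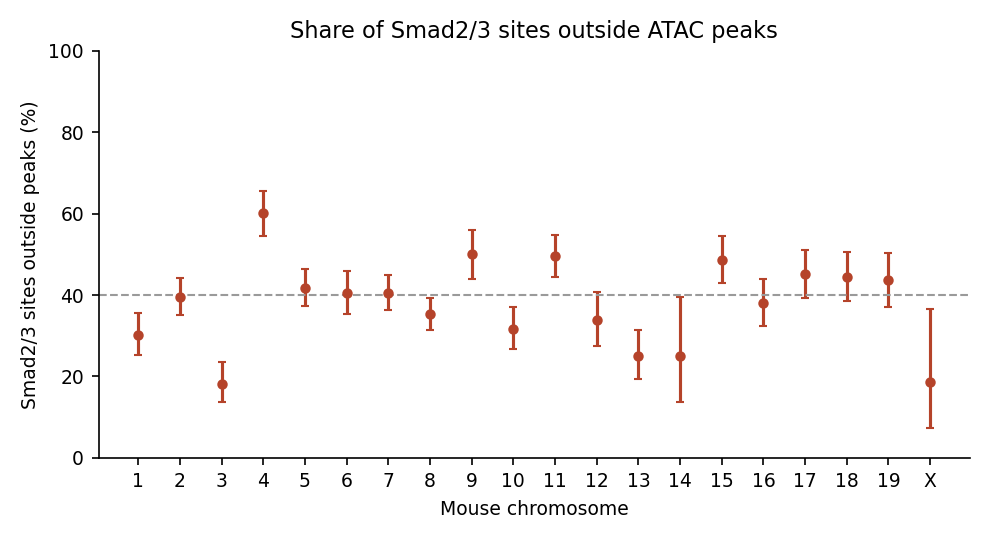
Percentage of Smad2/3 sites that lie outside ATAC peaks on each chromosome, with exact 95% binomial intervals; the dashed line is the share over all sites, 39.9%. Chromosome 4 stands highest at 60.1% and chromosome 3 lowest at 18.2%.

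Genes were then set beside the sites, counting a site for a gene when it lay in the gene or within 10 kb of it. Of 21887 protein-coding genes, 1512 (6.91%) had an outside site. Of these, 891 had outside sites only and 621 also had an inside site, and 1854 further genes had inside sites only. Genes with an outside site were long, with a median of 33540 bp against 17169 bp over all protein-coding genes, and a longer gene holds more sites of any kind. Pard3, which encodes a cell polarity protein, had the most, with 14 outside and 3 inside sites over 548.9 kb. Fbln2 had 11 outside and 2 inside sites over only 60.1 kb. Cux1, a homeobox gene, and Sorcs2, a sorting receptor gene, had 9 outside sites each. Nectin1, an adhesion gene, and Septin9, a cytoskeletal gene, had 8 each. Runx1, a transcription factor gene of hair follicle and blood, had 7, and Ahnak and Ctif had 6 each.

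Among components of the TGF-β and BMP pathway, 6 of 36 genes had an outside site (16.7%, exact binomial interval 6.37 to 32.8%). That interval holds the 6.91% of all protein-coding genes. The signal transducer Smad3 had 3 outside sites and 1 inside site, all 3 outside sites in the gene. The inhibitory Smad6 had 2 outside and 2 inside sites. The coreceptor Eng had 3 outside sites and 1 inside site, and Smurf1, a ubiquitin ligase that acts on Smads and receptors, had 1 of each. Of the BMP targets, Id1 had 2 outside and 3 inside sites and Id4 had 1 outside site, 14276 bp from a peak. Of 29 TGF-β target genes, 9 had an outside site, beside the 6.91% of all protein-coding genes, and 5 more had inside sites only. Smad7 had 5 outside and 2 inside sites. Ctgf, the secreted matrix-associated protein that RefSeq names Ccn2, had 1 outside site in the gene, 561 bp from a peak, and no inside site. Cdkn1a, encoding the cell cycle inhibitor p21, had 1 outside and 1 inside site. Pmepa1, Itgb6, Ltbp3 and Pdgfb were also among them.

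Of 30 keratinocyte and hair follicle genes, 11 (36.7%, exact 95% interval 19.9 to 56.1%) had an outside site, beside 6.91% of all protein-coding genes. That interval overlaps the one of the TGF-β targets (15.3 to 50.8%), and the lists were not tested against each other. Of the 11, 8 had no inside site, beside 891 of the 1512 protein-coding genes with an outside site. A further 6 of the 30 had inside sites only, beside 1854 of 21887 protein-coding genes. Krt5 had 4 outside sites and Krt14, its partner in basal epidermis, had 2, and neither had an inside site. A Krt14 site at chr11:100206406-100206606 lay 795 bp from a peak. Krt15, Krt6a, Krt17 and Krt8 were also among them, with the cadherin genes Cdh1 and Cdh3, the hemidesmosome integrin gene Itgb4 and the hair follicle transcription factor genes Nfatc1 and Tcf7l1. Over the keratin gene family, looked up after these values were seen, 22 of 53 genes had an outside site, again beside 6.91% of all protein-coding genes, 20 of them with no inside site, and 1 had an inside site only. Neighbouring keratin genes can share a site. The keratins split evenly between both clusters, with 11 of 27 genes on chromosome 11 and 11 of 26 on chromosome 15. On chromosome 11, chr11:100067561-100290554 held 13 outside sites, 1 inside site and 4 peaks over 11 keratin genes. SCC1 had 4 copies of this stretch in the authors' table and SCC2 had 3. The authors' deposited table of ratios gave no value for any of the 11 listed keratinocyte genes. It did give 2 of the 22 family members, both with outside sites only. Krt13 had quiescent over proliferative log2 ratios of -1.31 in SCC1 and -0.79 in SCC2, and Krt42 had 0.10 in SCC1 and 2.86 in SCC2, by the authors' deposited table.

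For the lists of other cell types and processes the counts were small, and the exact 95% interval of each of the 5 shares holds the 6.91% of all protein-coding genes. Of mitosis and replication genes 1 of 30 had an outside site, the replication licensing gene Cdt1 with 3 (3.33%, exact 95% interval 0.0844 to 17.2%), and of AP-1 and immediate early genes 2 of 21 did, Fosl1 and Junb (9.52%). Of fibroblast and matrix genes 1 of 20 (5.00%) had one, Col6a1, 61334 bp from a peak. Of immune genes 1 of 18 (5.56%) had one, Itgam, and of endothelial genes 2 of 11 did, Pecam1 and Vwf (18.2%, interval 2.28 to 51.8%).

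The last comparison set these genes against the expression of quiescent and double negative cells relative to proliferative cells. A value is a log2 ratio of 2 populations in 1 tumour from the authors' deposited table, and a gene is called higher or lower when SCC1 and SCC2 have the same sign. The table holds 1609 genes chosen by the authors, gives no levels, and its depth is unknown, so no test was run. Quiescent over proliferative, 66 of the 151 table genes with an outside site were higher (43.7%) and 72 lower (47.7%) in the authors' deposited table, beside 35.8% higher and 52.3% lower over all its genes. By the authors' deposited table the median log2 ratio of these genes was -0.33 for SCC1 and 0.09 for SCC2, beside -0.61 and -0.49 over all genes.

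The count differed between genes with outside sites alone and those that also had an inside site. Of 88 table genes with outside sites only, 29 were higher (33.0%) and 51 lower (58.0%) in quiescent cells in the authors' deposited table, close to the share of all its genes. Of 63 genes with both kinds, 37 were higher (58.7%) and 21 lower (33.3%) in the authors' deposited table. Of 191 genes with inside sites only, 86 were higher (45.0%) and 85 lower in the authors' deposited table. Counting sites in the gene body alone, outside-only genes stood at 23 higher and 23 lower of 49 (46.9% higher) in the authors' deposited table. Inside-only genes then stood at 50 higher and 57 lower of 115 (43.5% higher). With 50 kb either side, 37.3% of 150 outside-only genes and 39.4% of 343 inside-only genes were higher in the authors' deposited table. The order of outside-only and inside-only genes thus depended on the window. These shares were not tested against each other, and gene length moves with them: over all protein-coding genes the median length was 24011 bp with outside sites only, 58724 bp with both kinds and 26093.5 bp with inside sites only.

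**Figure D5:**
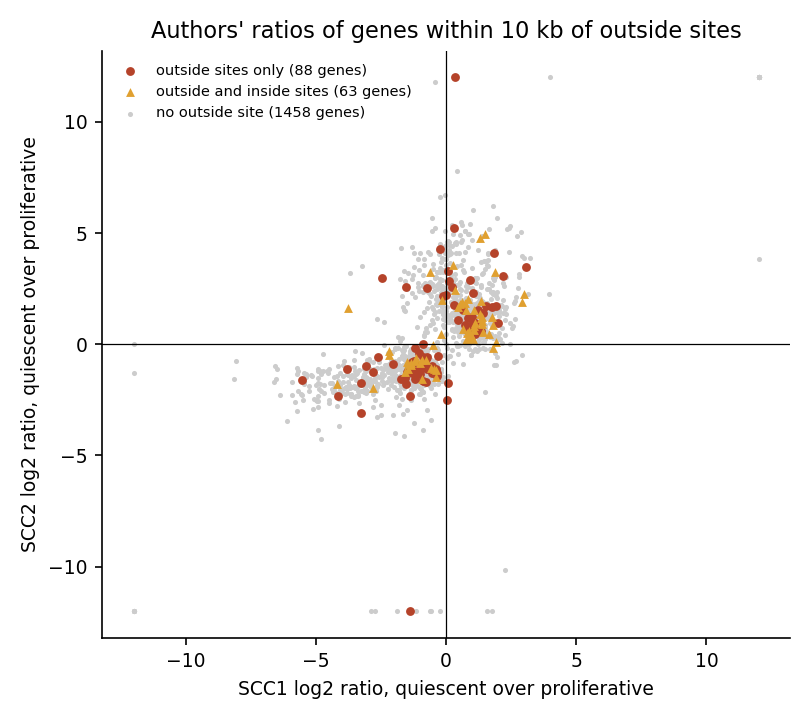
Log2 ratios of quiescent over proliferative cells in SCC1 (horizontal) and SCC2 (vertical) from the authors' deposited table, for 88 genes with outside sites only (red circles), 63 with outside and inside sites (yellow triangles) and the other 1458 genes (grey). Both coloured sets spread over the upper right and the lower left, and points at 12 in size are at the table's limit.

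The double negative comparison shares its proliferative libraries with the quiescent one. Of the 151 genes, 71 were higher and 69 lower in the authors' deposited table, beside 42.6% higher and 50.9% lower over all its genes. Genes with outside sites only stood at 32 higher and 51 lower of 88 in the authors' deposited table, and genes with both kinds at 39 higher and 18 lower of 63.

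The highest quiescent ratios among genes near outside sites were led by Ctgf. It had log2 ratios of 3.08 in SCC1 and 3.49 in SCC2 for quiescent over proliferative cells, and 4.17 and 2.64 for double negative over proliferative cells, in the authors' deposited table. Cyp26b1, which degrades retinoic acid and has 3 outside sites and 1 inside site, had quiescent ratios of 1.49 in SCC1 and 4.97 in SCC2, by the authors' deposited table. Sod3, an extracellular superoxide dismutase with an outside site 14843 bp from a peak, had quiescent ratios of 1.84 in SCC1 and 4.10 in SCC2, by the authors' deposited table. The ratio is positive in both tumours for these genes, and SCC2 is the higher in each, by least for Ctgf.

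Bmf, a gene of the BCL2 family that promotes cell death, had quiescent log2 ratios of 3.01 in SCC1 and 2.28 in SCC2, by the authors' deposited table. Id1 had quiescent log2 ratios of 2.93 in SCC1 and 1.90 in SCC2, by the authors' deposited table. C1qtnf1, Ptprr, Auts2, Cpxm2 and Fstl1 complete the 10 highest. Among these 10, Bmf, Id1, C1qtnf1 and Cpxm2 had their outside sites beside the gene and none in it. For Cpxm2 and Fstl1 the SCC1 log2 ratio was small, 0.29 and 0.25, beside 5.21 and 3.56 in SCC2, by the authors' deposited table. Of the pathway list, Eng had quiescent log2 ratios of 0.72 in SCC1 and 1.879 in SCC2, by the authors' deposited table. Ctgf, Eng and Id1 of these lists were higher in both tumours in the authors' deposited table, and the same held for Junb, a subunit of AP-1, with 1.80 in SCC1 and 0.85 in SCC2.

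The lowest quiescent ratios were led by Kif2c. Kif2c, a kinesin of the centromere with 2 outside sites 15 and 864 bp from a peak, had quiescent log2 ratios of -5.52 in SCC1 and -1.61 in SCC2, by the authors' deposited table. Ncaph, a condensin subunit gene with 2 outside sites 6039 and 4736 bp from a peak, had quiescent log2 ratios of -4.14 in SCC1 and -2.34 in SCC2, by the authors' deposited table. Ckap2l, a gene of the mitotic spindle, had quiescent log2 ratios of -4.17 in SCC1 and -1.80 in SCC2, by the authors' deposited table. In all 3 the SCC1 ratio is the more negative. The outside sites of all 3 lie within 10 kb of the gene and not in it.

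Zwilch, a kinetochore gene, had quiescent log2 ratios of -3.28 in SCC1 and -1.76 in SCC2, by the authors' deposited table. Its site lies in the gene, 252 bp from a peak. Gls2, a glutaminase gene, had quiescent log2 ratios of -3.26 in SCC1 and -3.09 in SCC2, by the authors' deposited table. Fbln1, encoding the matrix protein fibulin 1, had 3 outside sites in the gene and quiescent log2 ratios of -2.79 in SCC1 and -1.95 in SCC2, by the authors' deposited table. Cdt1 had -1.47 in SCC1 and -1.30 in SCC2 for quiescent over proliferative cells in the authors' deposited table. Sapcd2, Chtf18, Gpx2 and 1810019D21Rik complete the 10 lowest. Gls2, Cdt1, Sapcd2, Chtf18 and Gpx2 also had their outside sites beside the gene and none in it. Fbln2 has no ratio in the authors' deposited table, nor do the other genes named above for the most outside sites, apart from Sorcs2 with 1.38 in SCC1 and 1.21 in SCC2 for quiescent over proliferative cells.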

How the data were processed

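ChIP-seq of Smad2/3, ATAC-seq, RNA-seq and input DNA of mouse skin carcinomas were used. Bowtie with build mm10 was used for the ChIP, input and ATAC libraries, and Picard 1.88 for the ChIP and input libraries, per the submitters' processing notes. The sources used here do not name the callers of peaks, motifs and copy number. Sites and peaks are positions deposited by the authors without a score. The log2 ratios were deposited by the authors, with TopHat2 2.0.9, Cufflinks 2.2.0 and Cuffdiff 2.2.0 per the submitters' processing notes; values at 12 in size are the table's limit. Copy numbers are whole copies per region of the SCC1 and SCC2 input DNA, as deposited by the authors.

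Overlaps of at least 1 bp and distances (1 where intervals touch) were computed with Python 3.11.15, numpy 2.4.6 and pandas 2.3.3. Genes and starts came from RefSeq GRCm38.p6, the assembly of mm10, without strand for gene bodies. Of 1609 table genes 1600 were matched, 1492 by symbol and 108 by synonym. A site was in a gene or gain by its centre. Outside and inside sites were compared by two-sided Fisher exact tests with Benjamini-Hochberg adjustment over 4 features at 0.05 (scipy 1.17.1), with Mantel-Haenszel odds ratios within chromosomes (statsmodels 0.14.6); the Fisher step was tested on simulated data. Figures used matplotlib 3.10.9. Intervals are exact 95% binomial intervals and cover counting error only.

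The members and the lists were chosen with earlier results of these data known. Named genes are the 10 highest and 10 lowest by mean SCC1 and SCC2 quiescent over proliferative ratio, with the same sign in both and not within 0.1 of the limit, among table genes with an outside site; every listed gene with one; the 10 protein-coding genes with most; genes at the 5 longest runs (ties included); and the 10 farthest sites. Sequences of Col17a1, Ddr1, Morrbid and Sbsn, the shorter runs, the bins, the stretches and the keratin family were added after values were seen. Alternatives changed the overlap rule, the windows, the gene set and the tumour. The mutation table was not used here. Some genes that the rule names are not reported here.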

Additional observations from a re-analysis of the deposited data

Results flagged for a closer look

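Among the named genes, 3 had log2 ratios of opposite sign in the 2 tumours for quiescent over proliferative cells in the authors' deposited table. In that table the tumours lacked a shared sign for 13 of the 151 genes with an outside site. The same held for 192 of all 1609 genes. Genes named for the highest and lowest ratios were chosen with the same sign in both tumours, so they could not be counted here. The difference between tumours was not tested, since each tumour has 1 library per population. Col6a1, a collagen VI chain gene, had -0.25 in SCC1 and 4.28 in SCC2. Fosl1, an AP-1 subunit gene, had only 0.077 in SCC1, so its sign there rests on a very small ratio, and -1.73 in SCC2. Wnt7a, with 5 outside sites, had -3.77 in SCC1 and 1.65 in SCC2.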

How the results depend on the processing

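Of 35 alternatives, 31 were counted as the same. For the compared features this meant the same direction and side of the threshold, and for the gene ratios a share moved by less than its interval. The alternatives for the number of outside sites are among the 31, though that number has no direction or threshold and was not held to its interval. The number of outside sites, 2453 by the main rule, ran from 2201 with peaks extended by 500 bp to 3411 with only peaks at least as wide as the median. It was 2624 by site centre. The difference in gene body share, 0.127 percentage points and not called, turned to an odds ratio of 0.977 within chromosomes, and the gain difference was -0.134 points for SCC1 losses, a different feature with few sites. Restricted to genes with outside sites and no inside site, the higher share of genes with the same sign in both tumours was 36.2% for quiescent and 38.6% for double negative cells, against 47.8% and 50.7% for all genes with an outside site in the authors' deposited table; the same shares over all table genes, 40.6% and 45.5%, lie between, and the cause was not tested. With 1 tumour at a time these shares ran from 45.7 to 50.3% and from 50.3 to 50.7%. The bin of Fbln2 and Wnt7a and the odds ratios within chromosomes were added after seeing the data. No paired analysis was possible because the ratio counts come from no test; each ratio is already a difference within 1 tumour, and a fit over the 2 tumours was not run. Depth is unknown for the sites, the peaks and the ratios.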
